A study of Mus musculus with 4 samples.

Results

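Sorted populations of CD41+ blood-forming cells were compared pairwise, with 1 array on either side, so that 2 of the 4 arrays of the series enter. Population 4 (Runx1+/VE-cadherin-/CD41+) was set against population 3 (Runx1+/VE-cadherin+/CD41+), so that both expressed the Runx1 reporter and CD41 and differed by their label in VE-cadherin alone. All cells came from a single mouse embryonic stem (ES) cell line, heterozygous Runx1 Venus/+ and made from CCE cells. In this line the fluorescent Venus gene sits in the Runx1 locus under its proximal promoter, so every sorted cell carried 1 altered Runx1 allele. The ES cells were grown for 6 days on OP9 stromal cells with no further treatment, then sorted by flow cytometry. As a model of the embryo the populations rest on 1 line in culture, on the sort gates, and on a dish shared with OP9 cells, which are of mouse origin too. Values of population 1 (Runx1-/VE-cadherin+/Flk1+) and population 2 (Runx1+/VE-cadherin+/CD41-) are given for some genes. All 4 populations were sorted on day 6, so their order is not a time course. In the paper's culture assays populations 2 and 3 gave lymphoid cells. The paper proposes that population 4 has primitive erythroid and myeloid potential only. Descent of population 4 from population 3 was not tested.

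Blood cells of the early embryo arise from endothelial cells in the endothelial-to-haematopoietic transition. VE-cadherin, encoded by Cdh5, is the adhesion molecule that holds endothelial cells to each other, and cells lose it as they leave the vessel wall. CD41, encoded by Itga2b, is an integrin chain that marks the first committed blood progenitors and, later, megakaryocytes. The comparison therefore shows how the RNA of CD41+ cells that carried an endothelial surface protein differed from that of CD41+ cells that did not.

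Signals are those of the probe sets as deposited, on a linear scale of array intensity. Where a gene had several probe sets, the brightest (by mean log2 signal over the 4 arrays) stood for it, and a gene was counted as measured where its signal was above 100 in population 3 or 4. Of 18194 genes, 9209 were measured. Signals under 100 were raised to 100 before folds were taken, and a fold that rests on a raised signal is only a bound, written "at least". Different probe sets bind with different strength, and signals are therefore compared only within a gene. With 1 array a population there is no error between replicates and no test, and the number of arrays limits the precision of each value below. The spread that can be given is between probe sets of a gene: over 6551 pairs of a gene's main and another measured probe set, the log2 ratio differed by a median of 0.23, and the 90th percentile of that difference was 0.76. Over the 5055 of these pairs with no raised signal the values were 0.19 and 0.55. For other probe sets with a raised signal, the signals in populations 3 and 4 are given below in place of a ratio.

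Genes of red cells were the highest above population 3, genes of endothelial cells and their matrix were far below it, and cell cycle genes were moderately higher. Of the 9209 measured genes, 126 (1.37%) were higher in population 4 by 4-fold or more. A further 440 (4.78%) were lower by 4-fold or more. At a limit of 2-fold, 752 genes (8.17%) were higher and 1152 (12.5%) were lower, and 79.3% of measured genes lay within 2-fold. The share of higher genes among those past 2-fold was 39.5% on the deposited scale and 51.9% after centring the arrays on their medians (1047 higher and 972 lower), so that the balance at this limit depended on the scale. At 4-fold it was 22.3% as deposited and 29.2% after centring. Next to the 4-fold limit, Dtl (4.01-fold) and Usp46 (3.99-fold) were the genes just inside and just outside among those higher, and Morrbid (at least 4.00-fold) and Filip1l (at least 3.996-fold) among those lower.

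**Figure D1:**
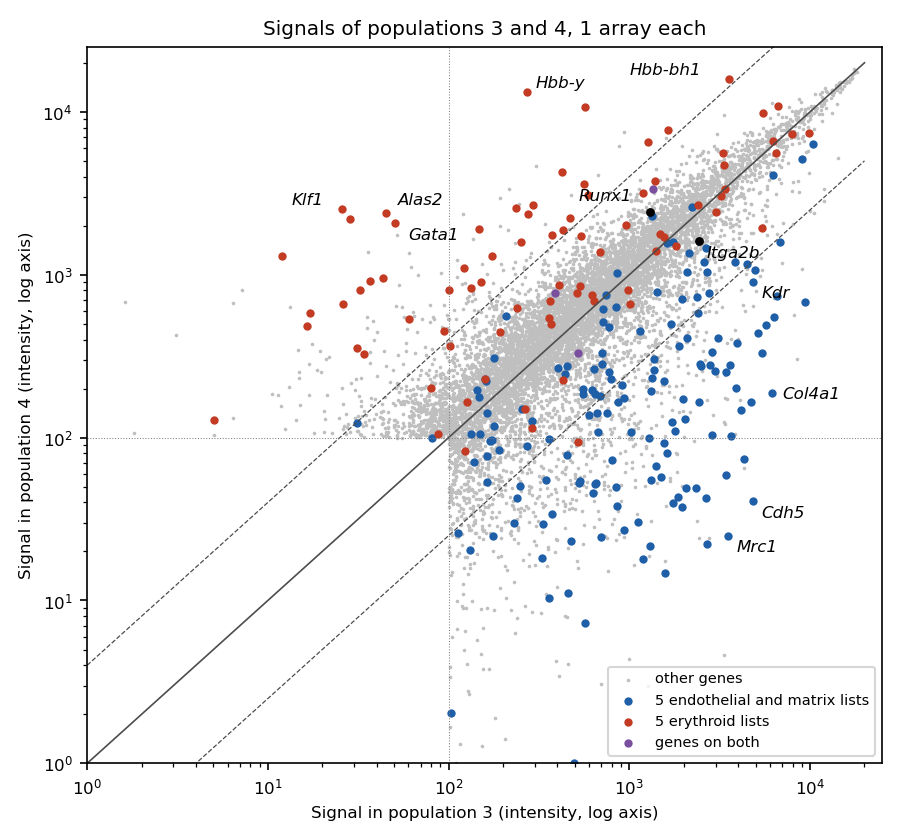
Each point is a measured gene, placed by its signal in population 3 (horizontal) and population 4 (vertical), in intensity on log axes with signals under 1 drawn at 1, and lines mark equal signals (solid), a 4-fold difference (dashed) and a signal of 100 (dotted). Genes of 5 erythroid lists (red) lie mostly towards the upper left and those of 5 endothelial and matrix lists (blue) towards the lower right, with Cdh5 at 4849 and 40.9, genes of both kinds in purple, and Runx1 and Itga2b in black.

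The genes past 4-fold higher and lower had different signals over the 4 populations. The 126 higher genes had median signals of 73.5 in population 1, 74.4 in population 2, 130 in population 3 and 965 in population 4. Of these, 43 were not above 100 in any of populations 1, 2 and 3, and population 4 was the highest of the 4 arrays for 125. The 440 lower genes had median signals of 1257, 823, 1043 and 114 in populations 1 to 4. Nearly all of them, 438, were above 100 in each of populations 1, 2 and 3, and population 4 was the lowest of the 4 arrays for 436. The values in populations 3 and 4 follow in part from the choice of genes by their ratio. With signals raised to 100, a lower gene needs a high signal in population 3 and a higher gene one in population 4. Populations 1 and 2 did not enter the ratio. There the lower genes had medians of 1257 and 823, and the higher ones 73.5 and 74.4. Of the lower genes, 274 were highest in population 1, 129 in population 3 and 37 in population 2.

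The genes of the 4 proteins used for sorting in the series differed in how far their RNA followed the label. Cdh5 had signals of 5683, 3946, 4849 and 40.9 in populations 1 to 4, a drop from population 3 to population 4 of at least 48.5-fold. A second, dimmer probe set of Cdh5 was lower too, with 121 in population 3 and 11.7 in population 4. Kdr, which encodes the vascular endothelial growth factor receptor Flk1, had signals of 5866, 4496, 4835 and 906, and was 5.34-fold lower. In population 4 the main Cdh5 probe set was thus below 100, while that of Kdr stayed well above it. Itga2b had signals of 667, 1135, 2418 and 1609.5 and was 1.502-fold lower in population 4, and Runx1 had 55.3, 358, 1297 and 2440.2 and was 1.88-fold higher. Of the 5 other Runx1 probe sets, 4 had log2 ratios of 0.80 to 0.93, against 0.91 for the main one, and the fifth had signals of 70.6 and 150.1. As 1 of the 2 Runx1 alleles carries Venus, the Runx1 signal is that of an altered locus.

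Genes of red cells stood highest among those above population 3. The letters that GATA factors bind, AGATAA or TGATAA on either strand (TTATCT or TTATCA when read on the gene's strand), occur in the promoters of several of them. The windows below are taken from the RefSeq promoters of mouse assembly GRCm38.p6 and run from 5′ to 3′ on the gene's strand, with the GATA letters in capitals. They show the embryonic globin genes Hbb-y and Hba-x, the erythroid factor Klf1, the haem enzymes Alas2 and Uros and the erythropoietin receptor Epor. These are all at least 4-fold higher. The endothelial genes Emcn, Cav1 and Erg, all at least 4-fold lower, follow. The embryonic globin gene Hbb-bh1 is not shown, and the windows were picked for holding these letters. Their positions are chr7:103853352-103853381 (Hbb-y, minus strand), chr11:32276480-32276509 (Hba-x, plus), chr8:84901890-84901919 (Klf1, plus), chrX:150547319-150547348 (Alas2, plus), chr7:133702551-133702580 (Uros, minus), chr9:21963613-21963642 (Epor, minus), chr3:137341076-137341105 (Emcn, plus), chr6:17307412-17307441 (Cav1, plus) and chr16:95459434-95459463 (Erg, minus).
Hbb-y: atctaatgtgcaTTATCAtaaacacagtgt
Hba-x: tgttgctggctcTGATAAcaggctccaccc
Klf1: tttgcctgggtcTTATCAgggaagacagcc
Alas2: ctactttgctttTTATCTttagcagaggcc
Uros: tctccctcagccTTATCAgtgacagagggc
Epor: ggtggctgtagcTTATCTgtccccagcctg
Emcn: tcctctagttctTTATCAgaatccccaaaa
Cav1: ccagagtgatctTGATAAtgttgaaaggga
Erg: tttcagggtctcTTATCTctccactcccaa

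The same letters were counted in promoters of 300 bases, 250 before and 50 after each start. They were in 17.4% of the 144 promoters of genes at least 4-fold higher, in 13.7% of the 439 promoters of genes at least 4-fold lower, in 9.91% of the 9706 promoters of all measured genes and in 18.6% of all 32851 promoters. The letters TGTGGT or TGCGGT, which Runx factors bind, were in 25.7%, 19.8%, 20.9% and 22.4% of the same sets. The letters CCNCNCCC, which Klf1 binds and which also fit other GC-rich sequence, were in 68.1%, 72.4%, 69.1% and 49.5%. A match describes the sequence and does not show binding, and 106 of the 126 higher and 316 of the 440 lower genes had a promoter in the table.

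All 3 measured embryonic globin genes were at least 4-fold higher. Hbb-y, the embryonic epsilon-like beta-globin, had signals of 11.3, 15.2, 271 and 13284 in populations 1 to 4, which is 49.0-fold higher in population 4 than in population 3. Hba-x, the embryonic zeta-globin of the alpha-globin cluster, had 46.0, 41.4, 568 and 10684 and was 18.8-fold higher. Hbb-bh1, the beta-H1 globin of the first red cells, had 73.3, 151, 3568 and 15940.0 and was 4.47-fold higher. All 3 measured embryonic globins were thus already above 100 in population 3 and higher again in population 4. Of the other probe sets of Hbb-y, 1 had a log2 ratio of 5.81 against 5.62 and another had signals of 39.0 and 7115, while those of Hbb-bh1 had ratios of 2.06 and 2.06 against 2.16. For the adult beta-globins, a probe set that the annotation assigns to several genes had 33.9, 46.0, 230 and 7467, while the probe set of Hbb-b2 had 37.1 in population 3 and 159 in population 4. These near-identical genes can share signal and cannot be told apart on this array.

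Regulators of the red cell programme followed. Klf1, which activates beta-globin genes, had signals of 25.6 in population 3 and 2538 in population 4, at least 25.4-fold higher. Gata1, the master factor of erythroid and megakaryocytic cells, had 50.7 and 2065, at least 20.7-fold higher. Both were below 100 in populations 1 and 2 as well, so that population 4 was the only array in which they passed 100. Nfe2, a factor that activates globin genes, had 1.67, 42.4, 277 and 2373 over the 4 populations and was 8.58-fold higher than in population 3. Gfi1b, a repressor needed for red cells and platelets, had 100.4 and 802 and was 7.99-fold higher. Of 21 measured erythroid transcription factors, 10 were higher and 1 lower by 2-fold or more, with a median log2 ratio of 0.99 against 0.08 over all measured genes. The exception was Klf3, a repressor of the same family as Klf1, with 5420.2 in population 3 and 1938 in population 4, 2.80-fold lower.

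Haem synthesis was higher along most of the pathway. Alas2, the erythroid enzyme of its first step, had signals of 44.8 in population 3 and 2396 in population 4, at least 23.96-fold higher. Alas1, which performs the same step in other cells, had 428 and 226 and was 1.90-fold lower. The enzyme for the first step thus differed in opposite directions between its erythroid and its general form. Of the later enzymes, Alad was 9.13-fold higher (293 and 2673), Uros 10.9-fold (235 and 2551), Urod 5.17-fold (1271 and 6566), Cpox 4.41-fold (428 and 1888), Ppox 6.21-fold (133 and 823) and Fech, which inserts the iron, 5.196-fold (591 and 3068). The other measured probe sets of Urod, Cpox and Fech had log2 ratios of 2.35 to 3.25. Dimmer second probe sets of Uros (32.5 and 125), Alad (55.9 and 152) and Ppox (47.8 and 228) were below 100 in population 3 and above it in population 4. Blvrb, an erythroid reductase, was 10.1-fold higher, and Hmox1, which degrades haem, was 2.52-fold lower (289.7 and 115). Of 18 measured genes on the haem list, 13 were at least 2-fold higher, 11 of them at least 4-fold, and the median log2 ratio was 2.23.

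Iron genes showed both directions. Tfrc, the transferrin receptor that brings iron in, had signals of 1641 in population 3 and 7770.0 in population 4, 4.74-fold higher. Its 5 other measured probe sets had signals of 32.9 to 58.9 in population 3 and of 196 to 444 in population 4. Slc25a37, the mitochondrial importer that feeds haem synthesis, had 216 and 3357, 15.5-fold higher. These carriers towards haem were higher, while the genes for release of iron from the cell were lower. Slc40a1, the exporter ferroportin, had 329 and 95.4, at least 3.29-fold lower, and its second probe set had 110.2 and 47.5. Heph, the oxidase that works with ferroportin, had 777 and 47.4, at least 7.77-fold lower. Of 22 measured iron genes, 5 were higher and 2 lower by 2-fold or more, with a median log2 ratio of 0.17.

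Genes of the red cell membrane and its skeleton were higher as well. Slc4a1, the anion exchanger band 3, had signals of 28.6 in population 3 and 2204 in population 4, at least 22.04-fold higher. Tmod1, which caps the short actin filaments of the membrane skeleton, had 148 and 1908, 12.9-fold higher. Add2 (beta-adducin) was at least 9.59-fold higher and Epb42 (protein 4.2) at least 9.17-fold. Of 22 measured members, 14 were at least 2-fold higher, 10 of them at least 4-fold, and the median log2 ratio was 1.76. Aqp1, a water channel of both red cells and endothelium, went the other way, with 520.1 and 94.4, at least 5.201-fold lower. Among the red cell enzymes and chaperones, 7 of 20 were at least 2-fold higher and none was 2-fold lower. Hemgn, a nuclear protein of blood progenitors, had 11.9 and 1296 and was at least 12.96-fold higher. Other genes among the 15 with the largest positive ratio were Mllt3 (119.9 and 2368), which encodes a partner of the elongation machinery, and Ell2 (303 and 4658), an elongation factor. They were 19.7-fold and 15.4-fold higher.

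**Figure D2:**
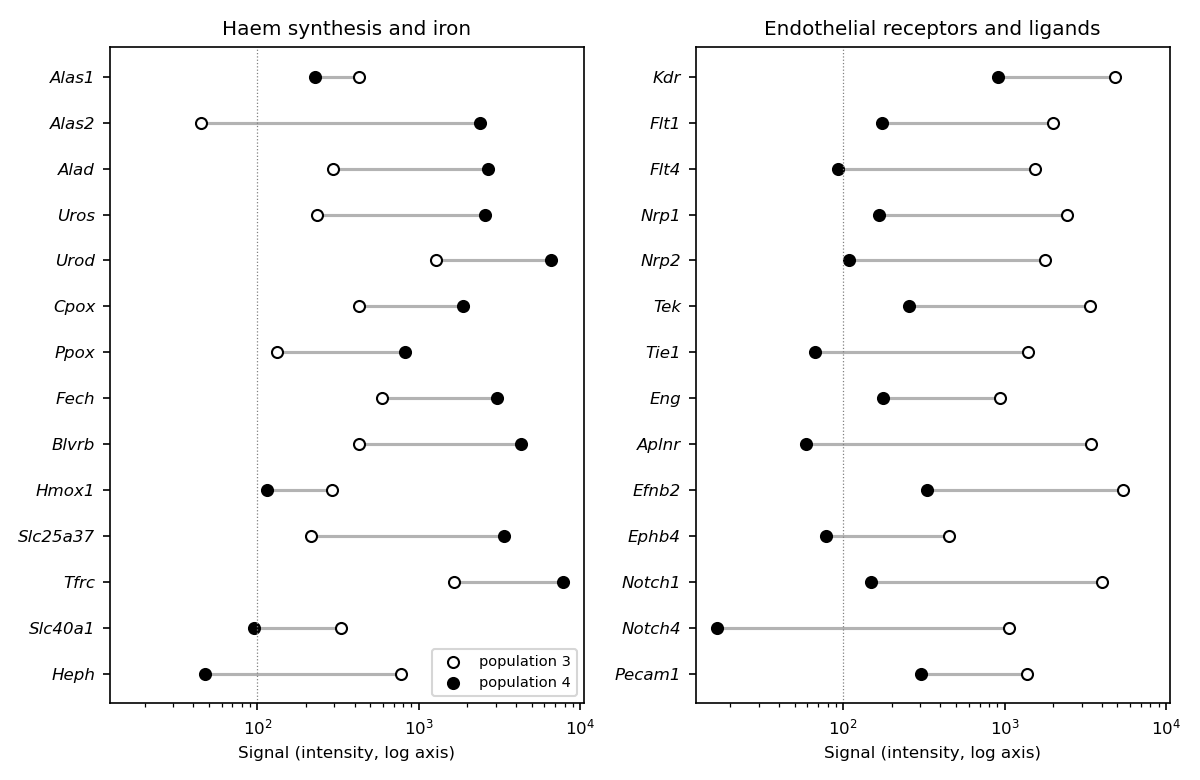
Open circles give the signal in population 3 and filled circles that in population 4 (intensity, log axis), 1 array each, for genes of haem synthesis and iron handling (left) and for endothelial receptors and ligands (right), with a dotted line at 100. On the left, filled circles lie to the right except for Alas1, Hmox1, Slc40a1 and Heph, and on the right all filled circles lie to the left. The genes drawn are a selection. The 3 measured members of the endothelial receptor list that were higher (Igf1r, Ackr3 and Efnb1) are not drawn.

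Megakaryocyte genes were split. Of 32 measured members, 11 were higher and 7 lower by 2-fold or more, and the median log2 ratio was 0.13, near that of all genes, and -0.08 with a signal minimum of 200. Tubb1, the platelet beta-tubulin, had signals of 52.0 in population 3 and 1742 in population 4, at least 17.4-fold higher. Gp1bb, a chain of the platelet receptor for von Willebrand factor, had 38.2 and 516 and was at least 5.16-fold higher. Pf4, a platelet chemokine, was 2.76-fold higher (124 and 343) and Itgb3, the partner chain of CD41, 2.69-fold (503 and 1354). Some of the lower members are expressed by endothelial cells too, and whether such expression went with the direction over the list was not tested. Gng11, a G protein subunit, had 3353 and 125 and was 26.8-fold lower. Pdgfb was 9.44-fold lower, the laminin receptor chain Itga6 8.99-fold and Vwf 5.23-fold.

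Myeloid genes showed no common direction. Of 22 measured of 47 listed, 4 passed 2-fold upwards and 2 downwards. The median log2 ratio was 0.36, and it was -0.26 with the mean over a gene's probe sets, so that its sign depended on the choice of probe set. Csf2rb, the shared receptor chain for several blood cytokines, had signals of 339.8 in population 3 and 2050.3 in population 4, 6.03-fold higher, and its paralogue Csf2rb2 was at least 5.36-fold higher. Alox5ap, which is needed for leukotriene synthesis, had 780.0, 984, 4454 and 1090.3 over the 4 populations and was 4.09-fold lower in population 4 than in population 3. Mrc1, a mannose receptor of macrophages and of some endothelial cells, had 2011, 1593, 3503 and 25.03 and was at least 35.0-fold lower. Both were highest in population 3 of the 4 arrays. Actin and adhesion regulators of blood cells were as mixed, with 3 of 18 higher and 4 lower by 2-fold or more, and a median of 0.10 that was -0.10 with the mean over probe sets.

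Receptors and regulators of progenitors also differed in both directions. Epor, the erythropoietin receptor, had signals of 122 in population 3 and 1092 in population 4, 8.93-fold higher. Kit, the stem cell factor receptor, had 2093 and 703, 2.98-fold lower, with a second probe set at 130.1 and 75.2. Lifr, a receptor chain for leukaemia inhibitory factor, was 10.1-fold lower (2789 and 277), with a second probe set at 107.6 and 22.001. Of 17 measured cytokine receptors, 3 were higher and 5 lower by 2-fold or more. Among stem and progenitor regulators, 4 of 23 were higher and 9 lower by 2-fold or more, with a median log2 ratio of -0.65. Mecom, a zinc finger factor of stem cells and endothelium, had 2761 and 24.3, at least 27.6-fold lower, and Cd34, a sialomucin of both, had 2974 and 257, 11.6-fold lower. Myb, which definitive blood progenitors need, had 2.08, 31.1, 174 and 1302 over the 4 populations and was 7.504-fold higher in population 4. Within the Runx1 circuit, Tal1 was 2.50-fold higher (1346 and 3359.5), Fli1 2.59-fold lower (2701 and 1043) and Gata2 1.57-fold lower (518 and 330.1). The median of the 10 measured Runx and triad regulators was 0.18, and it changed sign to -0.03 when the arrays were scaled on their hybridisation controls.

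**Figure D3:**
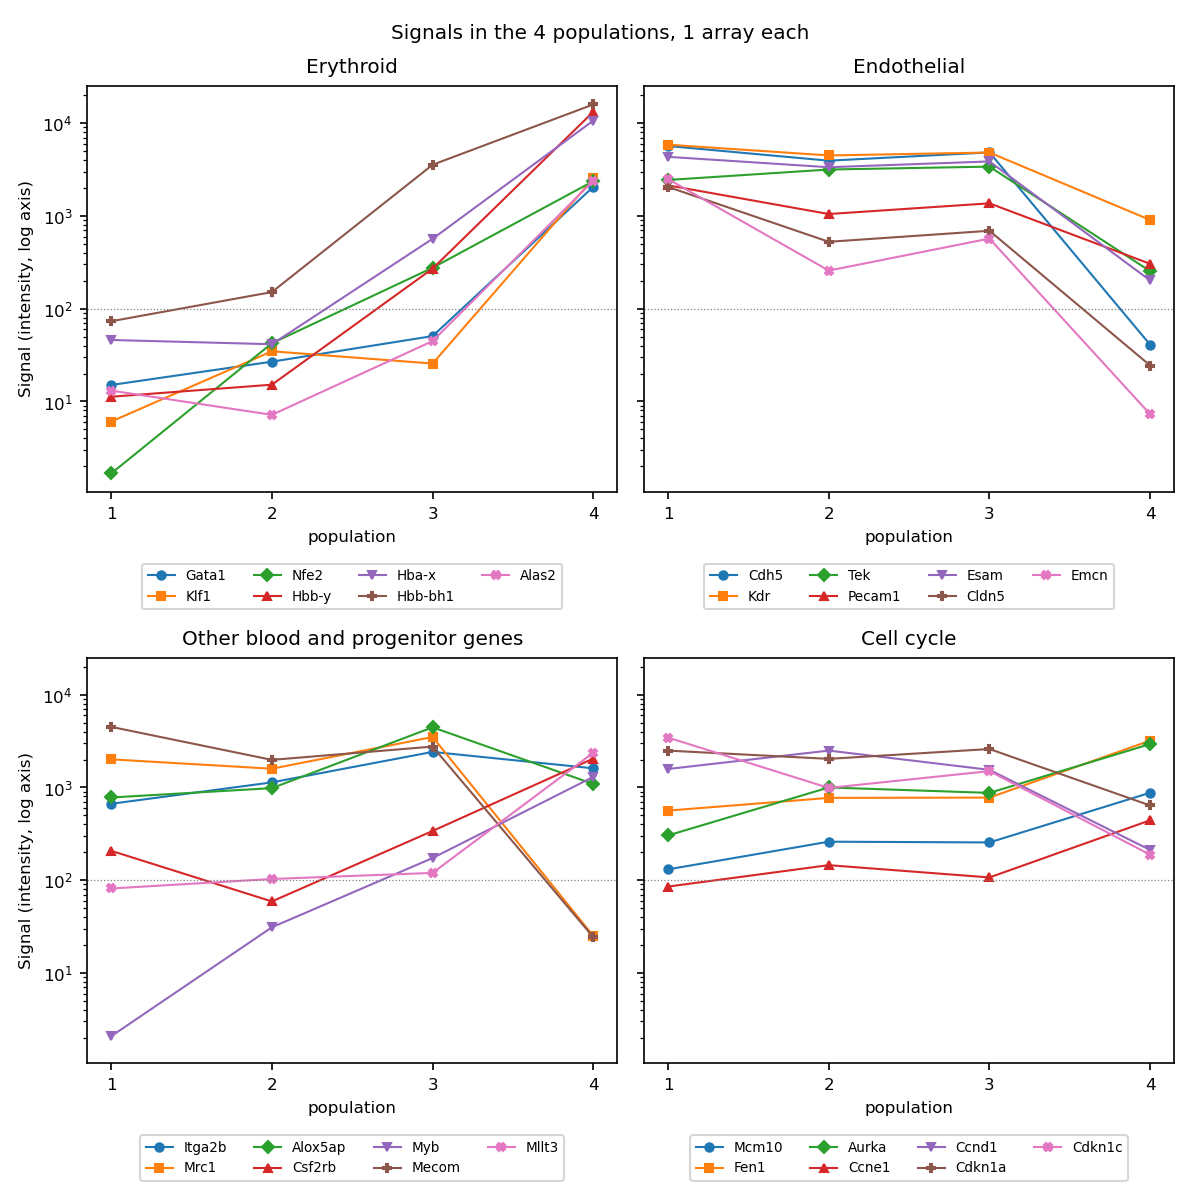
Lines join the signals (intensity, log axis) of named genes over populations 1 to 4, 1 array each, with a dotted line at 100 and genes identified in the key under each panel. Of the erythroid genes, Gata1, Klf1 and Alas2 pass 100 only in population 4, Nfe2, Hbb-y and Hba-x in population 3 and Hbb-bh1 in population 2. Of the endothelial genes, Cdh5 and Esam stay high over populations 1 to 3, while Emcn and Cldn5 are lower in populations 2 and 3 than in population 1. Itga2b and Alox5ap peak in population 3.

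Each list of endothelial and adhesion genes had a median log2 ratio below 0. The 8 lists of endothelial and adhesion genes together held 232 measured genes, of which 99 passed 4-fold downwards and 0 upwards. These 99 were 22.5% of the 440 lower genes. The 7 erythroid lists held 106 measured genes, of which 35 passed 4-fold upwards and 2 downwards, and these 35 were 27.8% of the 126 higher genes. Over all 9209 measured genes, 4.78% passed 4-fold downwards and 1.37% upwards. At 2-fold the shares were 12.5% and 8.17%. The counts of each list, above and below, are to be read beside these shares. Several genes stand on more than 1 list.

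Of the 33 measured junction genes, 10 were not above 100 in population 4. In all, 21 were at least 2-fold lower, 15 of them at least 4-fold, none was 2-fold higher, and the median log2 ratio was -1.85. Icam2, an adhesion molecule of endothelial contacts, had signals of 2053 in population 3 and 49.3 in population 4, at least 20.5-fold lower. Esam, another one, had 3873 and 202, 19.2-fold lower, and Amotl1, which links junctions to actin, was at least 16.2-fold lower. Cldn5, the main claudin of endothelial tight junctions, had 693 and 24.4, at least 6.93-fold lower. Pecam1, found on both endothelial and blood cells, had 1369 and 305, 4.49-fold lower. Cd99l2 was the member that went furthest against the list, at 1.73-fold higher.

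Receptors for growth and guidance signals had a median log2 ratio of -2.52, with a range of -2.92 to -1.98 over the alternative settings. Of 36 measured, 29 were at least 2-fold lower and 24 at least 4-fold, and none was 2-fold higher. Aplnr, the apelin receptor, had signals of 3442 in population 3 and 58.8 in population 4, at least 34.4-fold lower, with a second probe set at 310.3 and 33.3. Efna1, an ephrin ligand, was at least 26.4-fold lower, Ramp2, which forms the adrenomedullin receptor, at least 23.5-fold, and Ptprb, the vascular phosphatase that acts on Tie2 and VE-cadherin, at least 18.6-fold. Tek, which encodes Tie2, had 2446, 3169, 3405 and 254 over the 4 populations, 13.4-fold lower. The 3 members that went against the list were Igf1r at 1.71-fold higher, Ackr3 at 1.36-fold and Efnb1 at 1.20-fold.

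Surface lectins and sialomucins were lower to a like extent, with 19 of 27 at least 2-fold lower and a median of -2.35. Cd93, a receptor of endothelial and early blood cells, had signals of 4323 and 74.3, at least 43.2-fold lower, and its other probe sets had 3925 and 65.2 and, in the dimmer one, 161 and 18.99. Ecscr, a small endothelial surface protein, had 4308 and 65.0, at least 43.1-fold lower. Emcn (endomucin) had 2498, 258, 571 and 7.28 over the 4 populations. It was thus far lower in population 2 than in population 1 already, and dropped by at least 5.71-fold from population 3 to population 4. Adgrg1, an adhesion receptor of progenitors, went against the list, with 208 and 554, 2.66-fold higher.

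Transcription factors of the endothelium were lower as well. Of 31 measured, 23 were at least 2-fold lower and 1, Tal1, was at least 2-fold higher, with a median log2 ratio of -1.73. Hey1, a Notch target, had signals of 4724 in population 3 and 166 in population 4, 28.4-fold lower. Epas1, an oxygen-regulated factor, had 2869.8 and 104, 27.5-fold lower, and Sox17, an arterial and haemogenic factor, had 1572 and 14.7, at least 15.7-fold lower. Hhex, a homeobox gene shared by blood and endothelium, was within 2-fold at 1.17-fold higher. In the Notch pathway 11 of 25 measured genes were at least 2-fold lower and none was 2-fold higher. Notch1, with 4037 and 149, was 27.2-fold lower, Notch4, with 1067 and 16.5, at least 10.7-fold, and Nrarp, a feedback inhibitor, 7.496-fold. Snw1, a nuclear cofactor, and Pofut1, which glycosylates Notch receptors, went the other way at 1.57-fold and 1.42-fold higher.

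Adhesion to matrix was a second group of lower genes. Of 31 measured basement membrane and matrix genes, 21 were at least 2-fold lower, 15 of them at least 4-fold, and none was 2-fold higher. Col4a2 and Col4a1, the 2 main chains of type IV collagen, had signals of 3673 and 6154 in population 3 and of 102 and 188 in population 4, 36.0-fold and 32.7-fold lower. Igfbp3, a secreted binding protein of insulin-like growth factors, was 28.2-fold lower. The median log2 ratio of the list was -1.81, with a range of -3.08 to -1.14 over the alternative settings. Of 44 focal adhesion and stress fibre genes, 29 were at least 2-fold lower and none was 2-fold higher, with Rhoj, a small GTPase of endothelial cells, 24.03-fold lower, Fermt2 (kindlin-2) 12.9-fold and Limch1 at least 12.6-fold. The other Fermt2 probe sets were lower too, with 807 and 66.3 in one and 109.97 and 22.7 in the other. Of the 9 measured caveolar and vesicle coat genes, 6 were at least 2-fold lower, among them Cavin1 at 19.4-fold and Cav1, the coat protein of caveolae, at least 10.3-fold (1033 and 64.7). Cav1 had 5513 in population 1 and 427 in population 2.

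Genes of TGF-beta and bone morphogenetic protein signalling were lower too. Of 28 measured on the list with transcription factors of epithelial-to-mesenchymal change, 12 were at least 2-fold lower and none was 2-fold higher. Tgfbr2, a TGF-beta receptor, had signals of 1724 and 125, 13.8-fold lower. Id3, a target of the same pathways, was at least 13.2-fold lower and Smad1, a signal carrier, 8.79-fold. Immediate early genes had a median log2 ratio of -1.46, and 13 of 20 were at least 2-fold lower. Klf4 had 3625 and 279.7, 12.96-fold lower, and Klf2, a factor that blood flow induces in endothelium, 2471 and 284, 8.70-fold lower. Egr1, a further early gene, was 1.44-fold higher. Of 11 measured interferon and MHC class I genes, 5 were at least 2-fold lower, with Rsad2 7.38-fold lower (797 and 108).

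**Figure D4:**
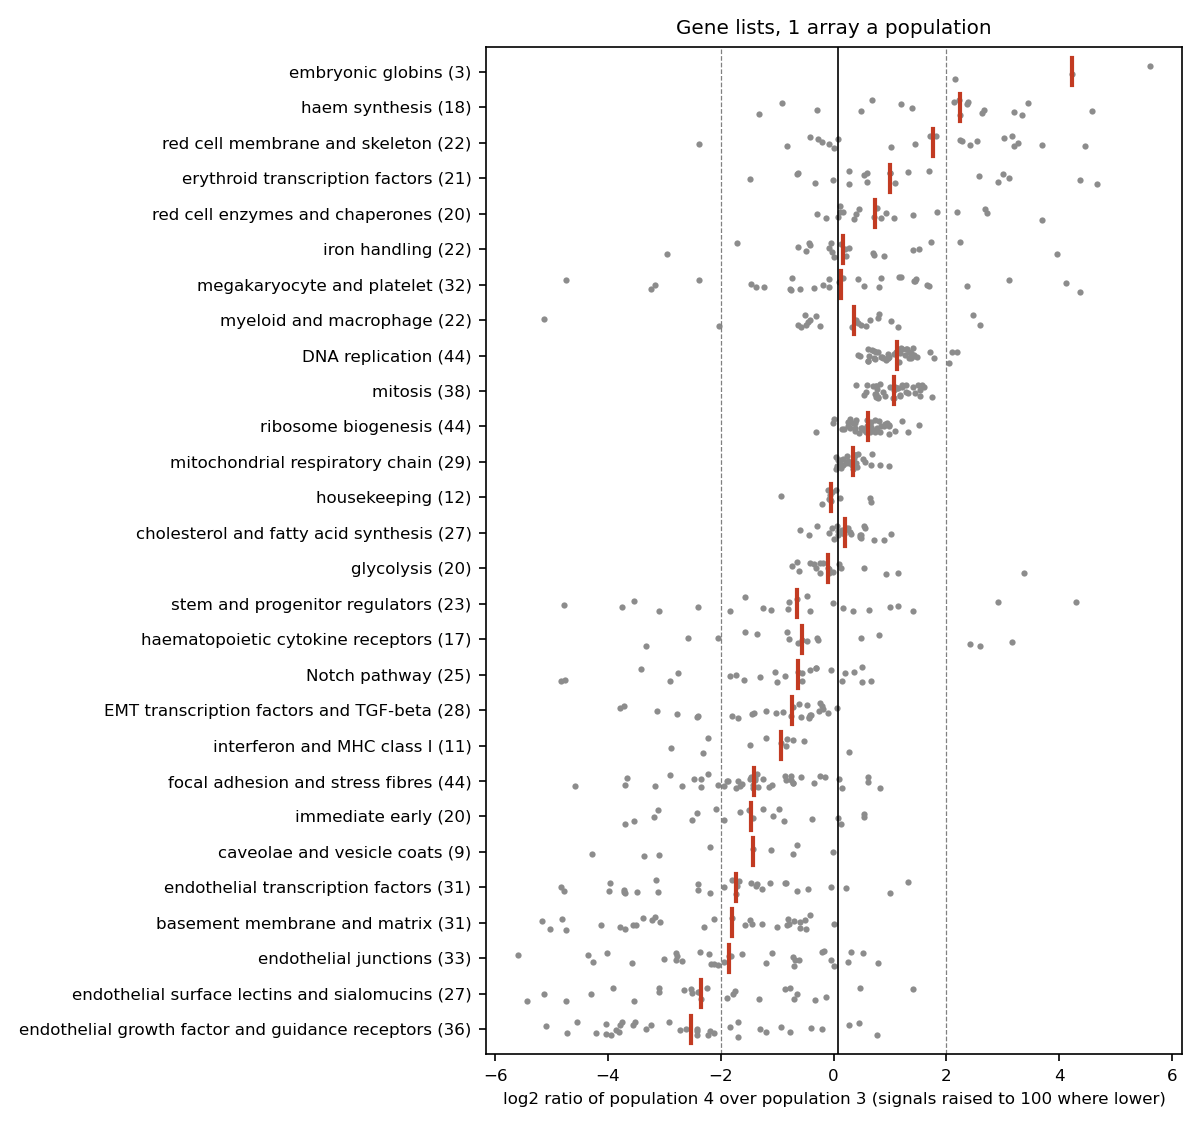
Each point is a measured gene of the list named on the left (number measured in brackets), placed by its log2 ratio of population 4 to population 3 with low signals raised to 100, and red bars mark list medians, the solid line the median of all measured genes (0.08) and dashed lines a 4-fold difference. Medians of the lists drawn run from 4.23 for the embryonic globins to -2.52 for endothelial growth factor and guidance receptors, and all points of the mitosis and DNA replication lists lie above 0.

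Cell cycle genes were higher together but by less. All 38 measured mitosis genes were higher in population 4 by some amount, 21 of them at least 2-fold and 0 at least 4-fold, and the median log2 ratio was 1.07. Aurka, a kinase of the spindle, had signals of 304, 1000.3, 874 and 2938 over the 4 populations, 3.36-fold higher in population 4 than in population 3, and its second probe set had 24.8 in population 3 and 111 in population 4. Mad2l1, a spindle checkpoint protein, had 1128 and 3354, 2.97-fold higher. All 44 measured DNA replication genes were higher as well, 24 of them at least 2-fold and 3 at least 4-fold, with a median of 1.12. Those 3 were Ung (282 and 1286), which removes uracil from DNA, Tk1 (261 and 1110.2), thymidine kinase, and Fen1 (777 and 3202), which trims Okazaki fragments. The lowest log2 ratios were 0.40 on the mitosis list and 0.44 on the replication list. Under each of the 3 other scalings all 38 and all 44 were still higher, with 17 to 25 and 22 to 32 of them at least 2-fold. These scalings moved the median of all genes from 0.08 only to -0.03, 0.12 or 0.25. With the lowest ratios given above, the directions could hardly have changed. The median signal of the mitosis list was 370 in population 1, 993 in population 2, 942 in population 3 and 1749 in population 4.

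Regulators of the step into the cell cycle did not share that direction. Of 21 measured cyclins of that step and inhibitors, 3 were higher and 4 lower by 2-fold or more. Ccne1, cyclin E1, had signals of 107 and 443, 4.14-fold higher. Ccnd1, cyclin D1, had 1549.6 and 212, 7.32-fold lower. The inhibitors Cdkn1c (1502 and 188) and Cdkn1a (2598 and 639.8) were 7.97-fold and 4.06-fold lower.

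Genes of ribosome biogenesis had a median log2 ratio of 0.62 over 44 measured genes, of which 42 were higher by some amount. At least 2-fold higher were 4 of the 44, a share near the 8.17% of all measured genes. After centring on the array medians 11 of the 44 were, beside 1047 of all 9036 genes measured on that scale. Rrp9, which binds the U3 small nucleolar RNA, was 2.87-fold higher (135 and 389). All 29 measured genes of the mitochondrial respiratory chain were higher, with a median of 0.34, and none reached 2-fold. When the arrays were scaled on the hybridisation controls, 6 of them were lower. Glycolysis genes had a median of -0.10, near 0 and of opposite sign (0.08) after centring on the array median. Among them Pfkfb4, which makes an activator of phosphofructokinase, stood apart with 193 and 2002.2, 10.4-fold higher. The 12 housekeeping genes had a median of -0.05 (0.12 after centring), from -0.93 (B2m) to 0.67 (Hprt). The 27 cholesterol and fatty acid synthesis genes had a median of 0.20, with Hsd17b7 alone past 2-fold (2.02-fold higher). Of 15 cell death genes, 1 was higher and 4 lower by 2-fold or more. Bcl2l11 (Bim), which promotes it, was 9.21-fold lower (3490.0 and 379), and its 4 other measured probe sets, from 2363 and 296 in the brightest to 101 and 25.5 in the dimmest, were lower in population 4 as well. Bid was 5.08-fold higher (121 and 614).

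The genes that the study assigned to Runx1-bound regions were also compared, by name only. Of 507 genes matched for regions bound in population 4 but not earlier, 402 were measured, with a median log2 ratio of 0.15. Of these, 11.9% passed 2-fold upwards and 11.7% downwards, against 8.17% and 12.5% of all measured genes. At 4-fold the shares were 3.23% and 2.49%, against 1.37% and 4.78%. The 13 genes past 4-fold higher held Gata1, Nfe2, Slc4a1, Ell2 and Tspan33, and the 10 past 4-fold lower held Sox17, Lifr and Alox5ap. Of the 34 measured genes of regions bound in population 2 or 3, whether or not also in population 4, 4 passed 2-fold upwards and 4 downwards, with a median of 0.39.

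Markers of cell types that the sort could hold were also described. The sort proteins' own genes Cdh5, Kdr and Itga2b are among them, so these values are no check of the labels apart from the gates. The sums below add probe sets that bind with different strength, so the brightest weigh most. An example is Hbb-bh1, with 3568 in population 3 and 15940 in population 4. All 7 endothelial markers were above 100 in population 3 and 4 of 7 in population 4, and their summed signal was 19594 and 1739. Of the 5 erythroid markers named on the array, 3 and then all 5 were above 100, with sums of 4334 and 32318. Of 4 megakaryocyte markers, 2 and then 4 were above 100, with sums of 2612 and 2648, nearly all from Itga2b in population 3. Of 5 macrophage markers, 3 were above 100 in both populations (sums of 674 and 732), while Adgre1 and Itgam were below. Of 6 stromal markers, Col1a2 (969.9 and 843) and Col3a1 (376 and 251) were above 100 in both, with Col1a1, Pdgfra, Postn and Dcn below. On the longer stromal list of 30 genes, 14 were measured and 4 passed 2-fold downwards, with a median log2 ratio of -0.49, and Fstl1, a secreted glycoprotein, was 7.32-fold lower (4386 and 599). None of the 4 ES cell markers and none of the 3 mast cell markers was above 100 in either. The part of mixed cells in these differences was not tested, and in sorted bulk RNA fewer cells of a type and less RNA per cell cannot be told apart.

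The arrays themselves were alike in quality. The 9 probe sets of the hybridisation controls had a median log2 ratio of 0.04 and the 12 of the poly-A controls -0.22. The ratio of 3′ to 5′ signal was 1.28 and 1.39 for beta-actin and 0.880 and 0.901 for Gapdh in populations 3 and 4. The 3 probe sets of 18S ribosomal RNA were 1.12-fold to 1.38-fold higher in population 4, and the part of this in the differences above was not tested. Of the 126 higher genes, 55 had another measured probe set and in all 55 it went the same way, with 32 at least 2-fold in every probe set. Of the 440 lower genes, 211 had one, 210 went the same way and 144 were at least 2-fold in every probe set.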

How the data were processed

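Total RNA of the 4 sorted populations was labelled by the authors and hybridised to Affymetrix arrays for the mouse genome, 1 per population. The authors deposited probe set signals as intensity values on a linear scale. According to the submitters' processing notes, MAS5 was used in GCOS 1.3. A scaling target and detection calls are not given in the sources used here. Populations were taken from the labels. Of 45101 probe sets, 34958 carry 1 gene symbol in the array annotation and were used, 932 carry several and 9211 none, which includes most of the 64 control probe sets. All columns of the table were matched to a sample.

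Log2 ratios were taken between population 4 and population 3, with signals raised to 100. There is no replicate among the arrays used here, so no test was made. The computation was tested on simulated data. The members of the comparison and the 39 gene lists were chosen with earlier results of these data known. Most genes were named by a rule: the sort markers, the 15 largest differences a direction with a signal of at least 400 and all probe sets going the same way, up to 4 members of each list with the largest ratio, up to 3 that go against its median, and all measured globins. Others, among them Gp1bb, Pf4, Cldn5, Pecam1 and Emcn, belong to a separate hand-picked set of cell type markers. Genes of the promoter windows, such as Erg, were picked for holding the GATA letters. The remaining haem enzymes, Vwf, Itgb3, Csf2rb2 where it is set beside Csf2rb, the genes next to the 4-fold limit and those near Runx1-bound regions were chosen after their values were seen. Promoters came from RefSeq (GRCm38.p6) and were searched for the letters given on both strands. The scale (median centring, quantile normalisation, hybridisation controls), the floor (50 or 200), the minimum (none or 200), the probe set rule and shared probe sets were varied. The computation ran in Python 3.11.15 with numpy 2.4.6, pandas 2.3.3 and scipy 1.17.1, and plots were drawn with matplotlib 3.10.9. ChIP-Seq reads and Agilent arrays were not analysed here. The paper reports a second replicate set of the 4 populations, which was run on Agilent arrays. It also reports quantitative RT-PCR of Runx1, Gata1, Gfi1b, Cldn5 and globin genes over these populations.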

Additional observations from a re-analysis of the deposited data

How the results depend on the processing

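No paired analysis was possible because each population has 1 array among those used here, and for the same reason no array could be left out. The counts at 4-fold and 2-fold stayed within 1.5 times under all 3 scalings, a floor of 50, the other signal minimums and without shared probe sets. At 4-fold they were 75 higher and 271 lower with signals raised to 200, and the mean over probe sets gave 76 and 265. Centring on the array medians moved the median of all genes from 0.08 to 0.25 and scaling on the hybridisation controls moved it to -0.03. The median log2 ratio of the red cell membrane list (1.76) was 2.47 and 1.14 with signals raised to 50 and 200, and 1.01 with no signal minimum. That of the megakaryocyte list (0.13) was 0.41 with signals raised to 50, 0.49 with the mean over probe sets and -0.08 with a minimum of 200, and that of the blood cell actin list (0.10) was -0.10 with the mean over probe sets. That of the myeloid list (0.36) was 0 with signals raised to 200, 0 with no minimum and -0.26 with the mean over probe sets. That of the basement membrane list (-1.81) was -1.47 with signals raised to 200, -2.30 with the mean over probe sets, -1.58 without shared probe sets, -1.14 with no minimum and -3.08 with a minimum of 200. The cause was not tested for these, apart from the floor, which sets how low a signal can count. Of 136 named genes that differed at least 2-fold, 0 took the opposite sign under any alternative. These genes were taken for a large ratio, and a floor or a signal minimum cannot reverse a sign. The scalings shifted the ratios too little to do so. Only the settings that change the probe sets could have given an opposite sign. Folds that rest on a signal raised to 100 are bounds, and those against signals just above 100 change with a floor of 200. How near a signal of 100 lies to background was not measured.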

Other observations

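Some genes among the 15 with the largest differences fall outside the gene groups described above. Higher in population 4 were Tuba4a, an alpha-tubulin isotype (signals of 192 in population 3 and 2977 in population 4, 15.5-fold), Kcnn4, the calcium-activated potassium channel of red cells (35.8 and 1386, at least 13.9-fold), and Ufsp1, a protease of the UFM1 pathway (60.3 and 1359, at least 13.6-fold). Second probe sets were higher too, with 95.8 and 1035.5 for Tuba4a, 28.3 and 601 for Kcnn4 and 47.9 and 498 for Ufsp1. Lower were Plk2, a kinase induced by stress (3829 and 106, 36.2-fold), Plagl1, an imprinted zinc finger factor (8484 and 302, 28.1-fold), Rasgrp3, an activator of Ras in endothelial cells (3382 and 121, 27.9-fold), and Klhl4 (3345 and 4.60, at least 33.5-fold).

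Genes of muscle differed in both directions, although most of the cardiac and smooth muscle list was not measured (7 of 18 genes). Tnni1, the slow skeletal troponin I, had signals of 80.2, 153, 286 and 1368 over populations 1 to 4, 4.79-fold higher in population 4 than in population 3. Tnnt2, the cardiac troponin T, had 127, 268, 277 and 80.8, at least 2.77-fold lower. Of the 3 measured genes on the lymphoid list, Ets1 (6571 and 741, 8.87-fold lower) and Ebf1 (772 and 44.6, at least 7.72-fold lower) are also expressed outside lymphocytes, and no lymphocyte receptor gene is among those measured.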
